A study of Mus musculus with 24 samples.

Results

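Haematopoietic stem cells (HSCs) are told apart from multipotent progenitors (MPPs) by antibodies to a small set of surface proteins and by reporter genes. The 10 genes described here encode these markers: *Kit*, *Ly6a*, *Slamf1*, *Cd48*, *Cd34*, *Cd27*, *Procr*, *Fgd5*, *Ctnnal1* and *Esam*. They were picked by name, and all 10 have a row among the 18762 genes of the deposited table. RNA was measured in LSK-SLAM cells, bone marrow cells sorted as lineage-negative, Sca-1+, c-Kit+, CD150+ and CD48-, from mice whose strain is given as C57BL/6 and genotype as WT in both groups. No label names a treatment. The young group held 5 mice of 4 to 5 months and the old group 7 mice of 20 to 22 months by the labels, whereas the study's own text gives other ages for LSK-SLAM cells of young and old mice. The labels list 2 samples per mouse, the deposited table has 1 column per mouse, and each mouse was counted once. Values are normalized read counts, that is, each gene's reads after the authors had scaled every library to a common effective size.

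Of the 10 genes, *Kit*, *Ly6a* (which encodes Sca-1), *Slamf1* (CD150) and *Cd48* name the proteins on which the cells had been gated. The same marker signs are given for both ages, and whether the staining limits were the same is not given in the sources used here. In background terms, long-term HSCs of the adult mouse carry CD150 and lack CD48 and CD34 on their surface, and they gain CD34, CD48 and FLT3 as they become MPPs. CD27 is found on HSCs as well as on MPPs, whereas *Procr* (EPCR), *Esam*, *Fgd5* and *Ctnnal1* (alpha-catulin) are used to enrich for HSCs within the LSK gate. Bulk RNA of a gated population was read, and a smaller share of cells with a transcript cannot be told apart from less transcript per cell.

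Recovered reads on genes ranged from 2049091 to 5118507 in young mice and from 861047 to 5004774 in old mice, and 3 reads corresponded to 0.583 to 3.69 normalized read counts depending on the mouse. Each mouse label ends in the letter A or B, whose meaning is not given in the sources used here. There were 2 young and 4 old mice of letter A, with 861047 to 3106243 reads, while the 3 young and 3 old mice of letter B had 3233516 to 5118507. The libraries of old mouse 5 and old mouse 7, both of letter A, were the shallowest, and they stood lowest among the old mice for *Kit*, *Ly6a*, *Cd27* and *Esam*. Comparisons of age are therefore given for all mice, with the letter in the model, within each letter, and without these 2 mice where that changed a call. The neutrophil and monocyte genes of a marker list (10 of 11 have a row, none at 0 in all mice) summed to 348 to 1096 normalized read counts in young and 353 to 4628 in old mice. Erythroid genes (9 of 10 with a row) summed to 184 to 363 in young and 106 to 1112 in old mice.

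Per kilobase of exon, the markers spanned a wide range of levels. *Kit*, the receptor for stem cell factor, was highest at 169 ± 52.9 normalized read counts per kb (SD, n = 12 mice), above 99.6% of all genes. *Ly6a* followed at 83.0 ± 34.9 per kb, *Cd27*, a TNF receptor family member, at 70.3 ± 23.5, *Procr*, the endothelial protein C receptor, at 44.9 ± 12.9, and *Esam*, an adhesion molecule of tight junctions, at 29.7 ± 9.39. The levels of *Fgd5*, a predicted exchange factor for CDC42, *Cd34*, a sialomucin, and *Slamf1* lay together at 19.7 ± 4.67, 17.2 ± 8.21 and 15.1 ± 5.29 per kb. *Ctnnal1* stood at 9.46 ± 2.53 per kb and *Cd48* was lowest at 5.20 ± 3.25, near the middle of all genes (above 54.2%). The order of the 4 gated genes by level was thus *Kit*, *Ly6a*, *Slamf1* and *Cd48*. No neighbours in the full order were apart by more than the sum of their SDs over the mice. Within a mouse, *Kit* was above *Ly6a* in 12 of 12 mice and *Procr* above *Esam* in 12 of 12, whereas *Fgd5* was above *Cd34* in 7 of 12 and *Cd34* above *Slamf1* in 6 of 12. The 6 mice with *Cd34* below *Slamf1* per kb were all old.

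**Figure D1:**
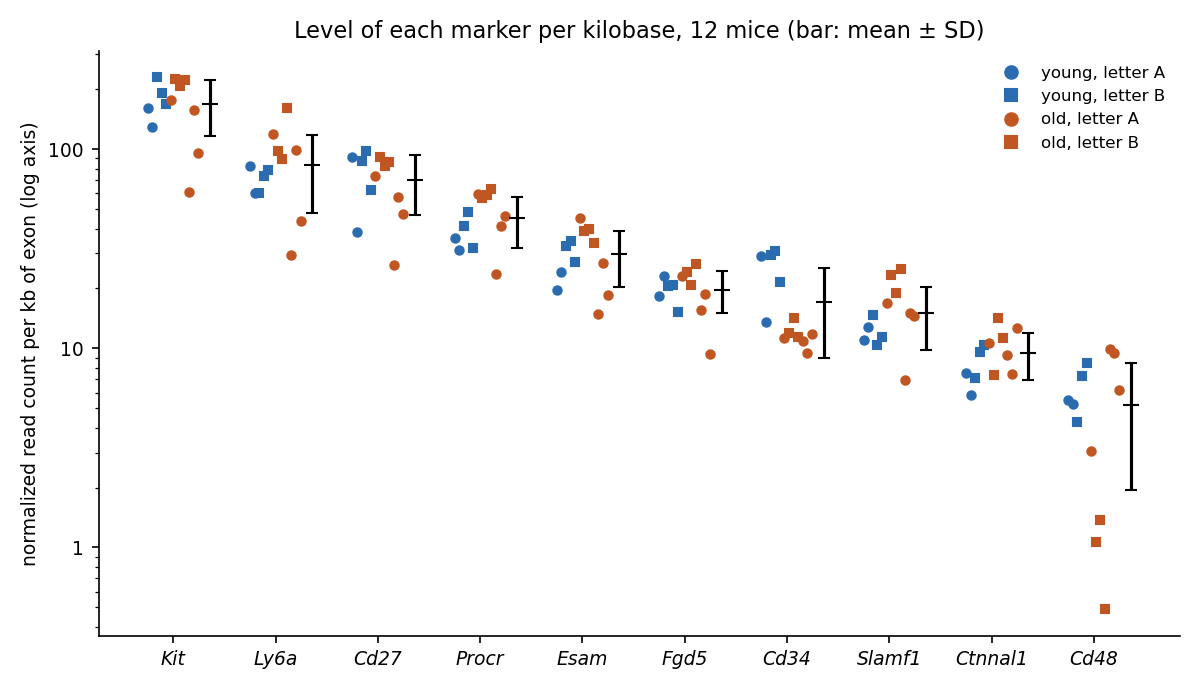
Normalized read count per kilobase of exon (log axis) for each marker, with 1 point per mouse (circles letter A, squares letter B; blue young, orange old) and the mean ± SD over the 12 mice beside it. *Kit* sits highest at a mean of 169 and *Cd48* lowest at 5.20, and the old mice fall below most young mice for *Cd34*.

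The question of the comparison was which of these markers differ between young and old LSK-SLAM cells. In the main fit (limma on log2(value + 1), genes with a mean of at least 10, Benjamini-Hochberg adjustment over 12354 genes, called at an adjusted p under 0.05), none of the 9 markers tested was called, against 0.105% of all genes. *Cd48* was below the minimum mean and is described by permutation tests and by a fit without the filter. At an unadjusted p under 0.05, 1 of the 9 passed, *Cd34*. With the letter in the model, *Cd34* was called lower in old mice, as 1 of 9 markers against 0.299% of all genes in either direction (35 higher, 2 lower). In that fit, *Slamf1* and *Procr* had unadjusted p of 0.0277 and 0.0437 with adjusted p of 0.838 and 0.922. Count tests on the recovered reads also called *Cd34* and no other marker (edgeR, 0.146% of all genes; DESeq2, 0.461%).

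**Figure D2:**
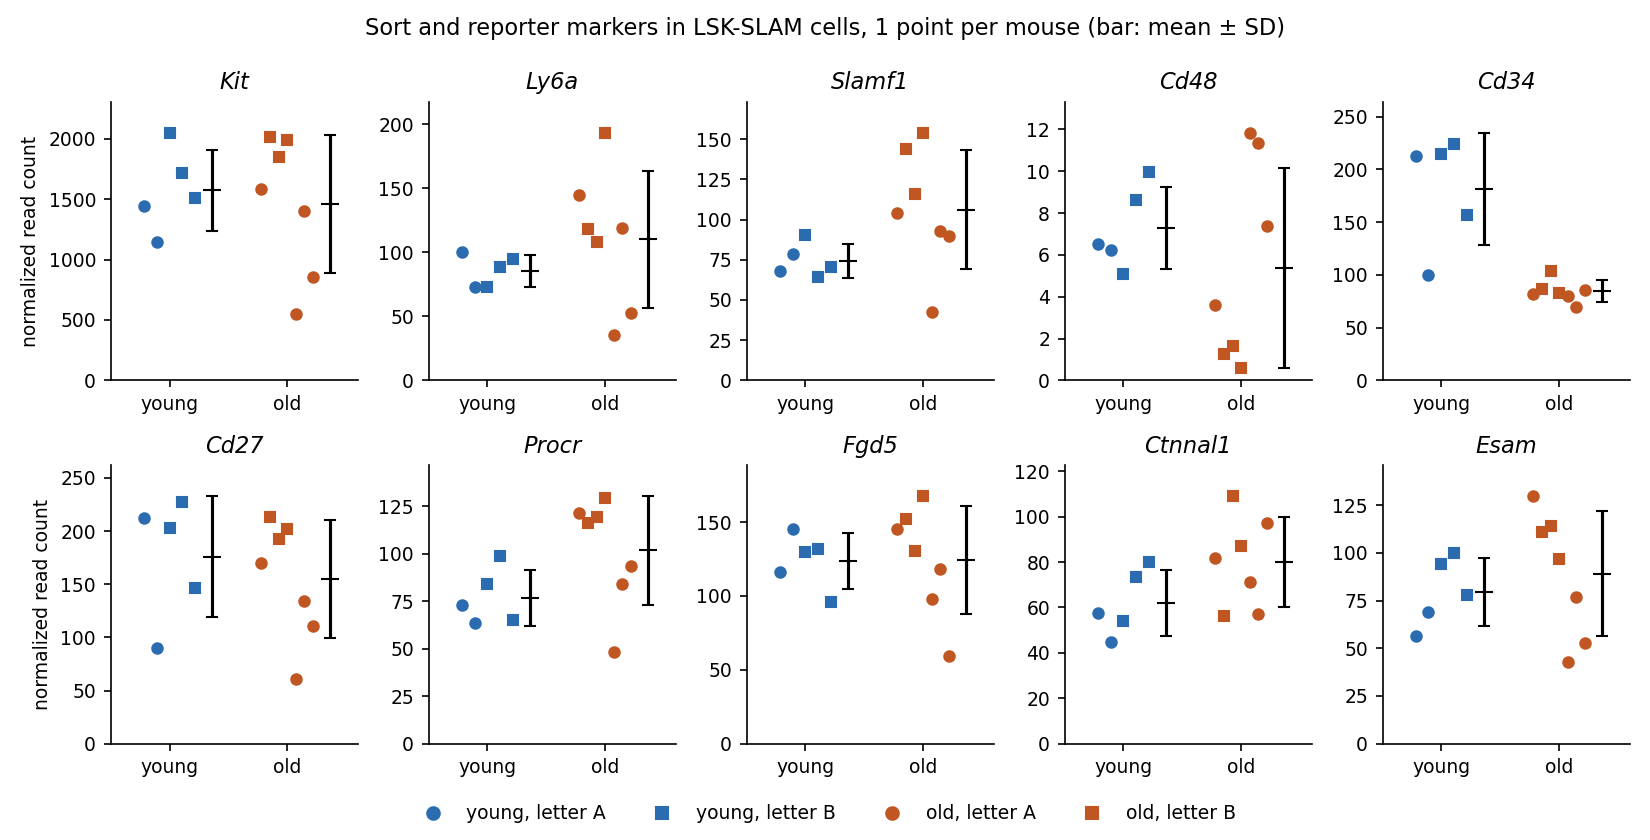
Normalized read counts of each marker by mouse, young against old, on linear axes that start at 0 (circles letter A, squares letter B), with the mean ± SD of each group at its right. The old mice lie at 69.4 to 104 for *Cd34*, where 4 of 5 young mice lie at 157 or above, and for *Cd48* the old mice of letter B lie at 0.583 to 1.63, below the old mice of letter A at 3.62 to 11.8.

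*Cd34* is at chr1:194938819-194961279 on the plus strand (GRCm38, GENCODE vM21). Its protein is the sialomucin that marks MPPs and short-term HSCs among mouse LSK cells. Young mice 1 to 5 had 212, 99.5, 215, 224 and 157 normalized read counts, and old mice 1 to 7 had 82.3, 87.0, 104, 83.2, 79.7, 69.4 and 86.1. Each of the 7 old mice was below the young median of 212, and 6 of 7 were below the lowest young mouse, young mouse 2 of letter A. The means were 182 ± 53.0 (SD, n = 5) and 84.5 ± 10.4 (n = 7), a ratio of 0.465.

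The log2 fold change of *Cd34* was -1.04 ± 0.20 (SE), with a 95% interval from -1.47 to -0.62, an unadjusted p of 7.05e-05 and an adjusted p of 0.0544 in limma, which missed the threshold. With the letter in the model it was -0.99 ± 0.19 (adjusted p = 0.00856). A two-sided exact permutation test over the 792 splits of the mice gave p = 0.00253, and over the 300 splits within letters p = 0.00333, the smallest that these splits can give. The ages did not overlap within letter A (99.5 and 212 in young, 69.4 to 86.1 in old mice) or within letter B (157 to 224 and 83.2 to 104). Such a separation within both letters in the same direction was seen in 1.13% of the genes tested, and among the 9 markers tested in *Cd34* alone. By limma within letter B the log2 fold change was -1.10 (adjusted p = 0.000808), in a fit that called 0.809% of all genes. Within letter A it was -0.87 (unadjusted p = 0.0200, adjusted p = 1.0).

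The fold change of *Cd34* was the 27th lowest of the 12354 genes tested. In the main fit the adjusted p ranged from 0.00754 without young mouse 2 to 0.280 without young mouse 3, and was under 0.05 in 2 of the 12 fits that left out a mouse, without young mouse 2 and without old mouse 5 (0.0357). With the letter in the model it stayed under 0.05 whichever old mouse was left out, and was 0.124, 0.0540 and 0.0625 without young mouse 1, 3 or 4. The gene *Gm16897* overlaps *Cd34* on the other strand, and 2.14% of the 50-base words of *Cd34* also occur in transcripts of other genes, most of all *Gm16897*.

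The 250 bases before the RefSeq start of *Cd34* (GRCm38.p6, chr1:194938571-194938820, plus strand) are shown with those of *Slamf1* (chr1:171766882-171767131, plus) and *Cd48* (chr1:171681742-171681991, plus), because *Cd34* was called with the letter in the model and *Slamf1* and *Cd48*, neighbours on the same chromosome, stood apart in opposite directions within letter B. Capitals mark matches, on either strand, to motifs with the letters AGATAA for GATA factors, AGGAAG for ETS factors, TGTGGT for RUNX factors and CANNTG for the E-box.
Cd34: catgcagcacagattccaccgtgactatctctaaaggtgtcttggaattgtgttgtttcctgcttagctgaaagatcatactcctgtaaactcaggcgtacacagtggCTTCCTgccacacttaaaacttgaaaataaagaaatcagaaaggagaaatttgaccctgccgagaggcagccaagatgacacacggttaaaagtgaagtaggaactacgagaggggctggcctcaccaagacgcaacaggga
Slamf1: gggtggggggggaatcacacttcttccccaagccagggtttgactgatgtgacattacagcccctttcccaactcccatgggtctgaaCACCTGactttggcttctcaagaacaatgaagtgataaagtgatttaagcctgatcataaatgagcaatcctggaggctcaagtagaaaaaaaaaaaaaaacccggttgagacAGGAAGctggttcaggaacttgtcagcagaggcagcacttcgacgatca
Cd48: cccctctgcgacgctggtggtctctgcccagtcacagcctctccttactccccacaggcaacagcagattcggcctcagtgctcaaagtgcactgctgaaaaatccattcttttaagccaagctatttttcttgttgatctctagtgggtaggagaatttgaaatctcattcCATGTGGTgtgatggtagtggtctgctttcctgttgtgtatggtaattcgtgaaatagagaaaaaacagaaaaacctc
*Cd34* held 1 ETS match, which started at -142 from the RefSeq start, and none of the other 3. *Slamf1* held an E-box match at -162 and an ETS match at -49. *Cd48* held an E-box match at -78 and a RUNX match at -76, and these overlap in the run of 8 capitals. In the same window, 29.2% of 27025 promoters held the ETS letters, 66.0% the E-box, 14.2% the RUNX and 10.3% the GATA letters. The GC content of the 3 windows was 46.4% for *Cd34*, 47.2% for *Slamf1* and 46% for *Cd48*, and the median over all promoters was 52.0%. Those of *Fgd5*, *Kit* and *Ctnnal1* were 71.6%, 70.8% and 68.4% GC, and held 5, 1 and 3 matches to the GC box GGGCGG, which 32.9% of promoters hold.

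*Slamf1* and *Cd48* are neighbours on chromosome 1 and members of the SLAM receptor family, whose proteins bind other SLAM receptors on blood cells. *Slamf1* lies at chr1:171767127-171801184 and *Cd48* at chr1:171682009-171705258, both on the plus strand and 61869 bases apart (GRCm38). CD150 was required and CD48 excluded by the gate. *Slamf1* had 68.1, 78.8, 90.3, 64.2 and 70.2 normalized read counts in young mice 1 to 5 and 104, 144, 116, 154, 42.6, 93.0 and 89.8 in old mice 1 to 7. Of the old mice, 5 of 7 were above the highest young mouse, 1 was within the young range, and old mouse 5 was the lowest of all.

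The mean of *Slamf1* was 74.3 ± 10.4 in young (n = 5) and 106 ± 37.2 in old mice (n = 7). The log2 fold change was 0.42 ± 0.25 (limma, adjusted p = 1.0; exact permutation p = 0.163, within letters 0.0833). Within letter B, young mice had 64.2 to 90.3 and old mice 116 to 154, and *Slamf1* was called higher in old mice (log2 fold change 0.88, limma adjusted p = 0.0235). Within letter A, the log2 fold change was 0.09 (adjusted p = 1.0). The difference between the letters, by the age-by-letter term, was 0.79 ± 0.42 with an adjusted p of 1.0, and none of the 9 markers was called for that term (0.0162% of all genes). Without the shallow old mice 5 and 7 and with the letter in the model, *Slamf1* was called as well (adjusted p = 0.0277, fit calling 0.955% of all genes), beside *Cd34* (adjusted p = 0.000818).

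*Cd48* was near the limit of the depth. It had 6.53, 6.25, 5.10, 8.63 and 9.99 normalized read counts in young mice 1 to 5, from 13 to 44 reads. The old mice had 3.62, 1.27, 1.63, 0.583, 11.8, 11.3 and 7.38, from 3 to 24 reads. Old mice 2, 3 and 4, all of letter B, were the lowest of the 12, and old mice 5 and 6, of letter A, were the highest. Over all mice the means were 7.30 ± 1.97 and 5.38 ± 4.80, with a log2 difference of -0.76 (exact permutation p = 0.211, within letters p = 0.0800).

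Within letter B, *Cd48* did not overlap between the ages, at 5.10 to 9.99 in 3 young and 0.583 to 1.63 in 3 old mice, and the log2 fold change without the filter was -2.03 (limma, unadjusted p = 0.0114, adjusted p = 0.453). Within letter A, young mice had 6.25 and 6.53 and old mice 3.62 to 11.8, with a log2 fold change of 0.26. The age-by-letter term of *Cd48* was -2.29 ± 0.99 (unadjusted p = 0.0279, adjusted p = 0.999). Neutrophil and monocyte genes summed to 1356 in old mouse 5, 4628 in old mouse 6 and 1077 in old mouse 7, against 353 to 392 in the 3 old mice of letter B. Their part in the *Cd48* values was not tested.

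A reference for such low levels was taken, after the data had been seen, from 1195 olfactory and vomeronasal receptor genes, which are known for detecting odours and pheromones in the nose. Their mean was 2.38 to 3.30 normalized read counts per kb in young and 2.75 to 5.30 in old mice of letter A, and 0.959 to 2.14 and 0.546 to 1.52 in those of letter B. It did not differ detectably between the ages (exact permutation p = 0.592). *Cd48* per kb was 0.833 to 0.901 times that mean in the 3 old mice of letter B, and was not detectable above the reference there. It was 3.92 to 7.57 times the mean in young mice of letter B, 1.59 to 2.31 times in young and 1.10 to 3.09 times in old mice of letter A. The other 9 markers were at 1.31 times the mean or more in every mouse, the lowest being *Slamf1* in old mouse 5. When the reference was subtracted, values below it were set to 0, which was so for *Cd48* in the 3 old mice of letter B. The log2 difference was then -1.39 for *Cd48* (exact permutation p = 0.0631, within letters p = 0.05) and -1.32 for *Cd34* (p = 0.00505, within letters p = 0.00333). For *Slamf1* it fell from 0.42 to 0.20 (exact permutation p = 0.831, within letters p = 0.55).

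**Figure D3:**
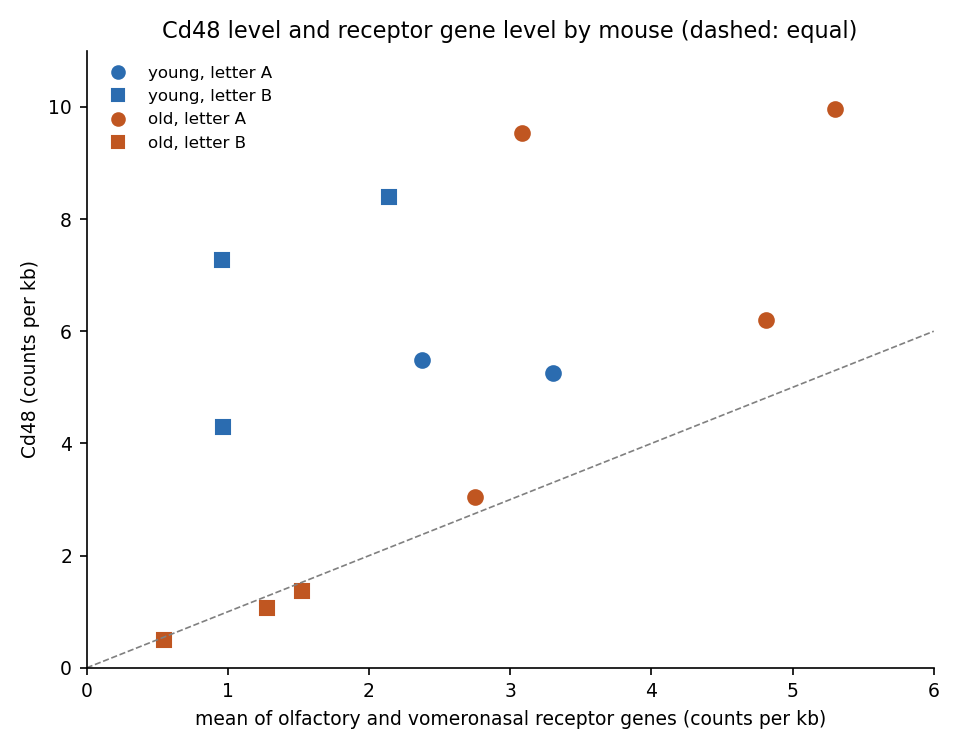
*Cd48* (vertical axis, normalized read counts per kb) against the mean of 1195 olfactory and vomeronasal receptor genes (horizontal axis, same unit), 1 point per mouse, with the line of equal values dashed. The 3 old mice of letter B sit just under the line, at 0.833 to 0.901 times the receptor gene mean, and the other 9 mice sit above it.

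Of the other genes of the SLAM family list (with the SAP and EAT-2 adaptors), 6 of 10 passed the filter and 0 were called in either direction, in the main fit or with the letter. Of these 6, 3 had positive and 3 negative fold changes, with a median of 0.06 on the log2 scale, beside -0.02 over all genes. *Cd84*, the most abundant of them, had 137 ± 33.6 normalized read counts in young and 159 ± 51.3 in old mice.

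*Kit* and *Ly6a*, which define the LSK gate, spanned a wider range in old than in young mice. *Kit* (chr5:75574916-75656722, plus strand) had 1147 to 2049 normalized read counts in young mice and 546 to 2013 in old mice, with 853 in old mouse 7 and 546 in old mouse 5. The other 5 old mice had 1399 to 2013, within the young range. The log2 fold change was -0.21, with a 95% interval from -1.06 to 0.65 (limma, adjusted p = 1.0). Without old mice 5 and 7 its sign turned, at 0.18. None of 18 other genes of KIT signalling was called, among them *Kitl*, the ligand, *Lyn* and *Ptpn6*, and their median was -0.11.

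*Ly6a* (chr15:74994877-74998031, minus strand) had 99.9, 72.6, 73.0, 88.7 and 94.6 normalized read counts in young mice 1 to 5 and 145, 118, 108, 193, 35.5, 119 and 52.9 in old mice 1 to 7. Thus 5 of 7 old mice were above every young mouse and the other two, old mice 5 and 7, were below every young mouse. The log2 fold change was 0.19, with a 95% interval from -0.50 to 0.87 (limma, adjusted p = 1.0; exact permutation p = 0.648). Within letter B it was 0.67 (adjusted p = 0.181), and within letter A -0.17. Of the 50-base words of *Ly6a*, 19.0% also occur in transcripts of other genes, most often *Ly6c1*, *Ly6i*, *I830127L07Rik* and *Ly6c2*, so that reads may be split between these genes.

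Of the markers used to enrich HSCs, *Procr* (chr2:155751117-155755471, plus strand) had 73.1, 63.5, 83.8, 98.5 and 64.9 normalized read counts in young mice 1 to 5. Old mice 1 to 7 had 122, 116, 119, 129, 48.1, 84.0 and 93.5. The 3 old mice of letter B and old mouse 1 were above every young mouse, and old mouse 5 was below every young mouse. The log2 fold change was 0.36 ± 0.23 (limma, adjusted p = 1.0; exact permutation p = 0.177, within letters 0.0867). Of 7 listed genes of the protein C pathway, 5 have a row. *Thbd* and *Pros1*, which act with this receptor in that pathway, and *Tfpi* were the 3 of these 5 that passed the filter, and 0 of 3 were called.

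*Ctnnal1* (chr4:56810935-56865188, minus strand) had 44.7 to 79.9 normalized read counts in young mice (median 57.5) and 56.4 to 109 in old mice (median 81.8), with 4 of 7 old mice above every young mouse. Its log2 fold change was 0.35 ± 0.21 (limma, adjusted p = 1.0; exact permutation p = 0.117). Old mice 5 and 7 had 71.0 and 97.2, neither below the young range. *Esam* (chr9:37528078-37538319, plus strand) had 56.6 to 99.7 in young and 42.6 to 130 in old mice, and a log2 fold change of 0.10 with an interval from -0.46 to 0.65. *Fgd5* (chr6:91978878-92076004, plus strand) had 95.8 to 145 in young and 59.0 to 168 in old mice. Its log2 fold change was -0.05, with an interval from -0.53 to 0.44, and its sign depended on the model. None of 7 junction partners of ESAM and alpha-catulin with a row (10 were listed) and none of 6 genes of the Fgd family with *Cdc42* was called.

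*Cd27* (chr6:125232622-125237010, minus strand) had 213, 89.9, 203, 227 and 146 normalized read counts in young mice 1 to 5 and 170.4, 213, 192, 202, 60.8, 135 and 111 in old mice 1 to 7. Young mouse 2 was again the lowest young mouse, as for *Cd34*. Here, however, the old mice lay within the young range, except old mouse 5, which was below it. The log2 fold change was -0.21, with an interval from -0.84 to 0.42 (limma, adjusted p = 1.0). The gene overlaps *Vamp1* on the other strand and *Mir8113*. Of the CD27 pathway genes, 5 of 6 passed the filter, *Traf2*, *Traf3*, *Traf5*, *Nfkb2* and *Map3k14*, and 0 were called.

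**Figure D4:**
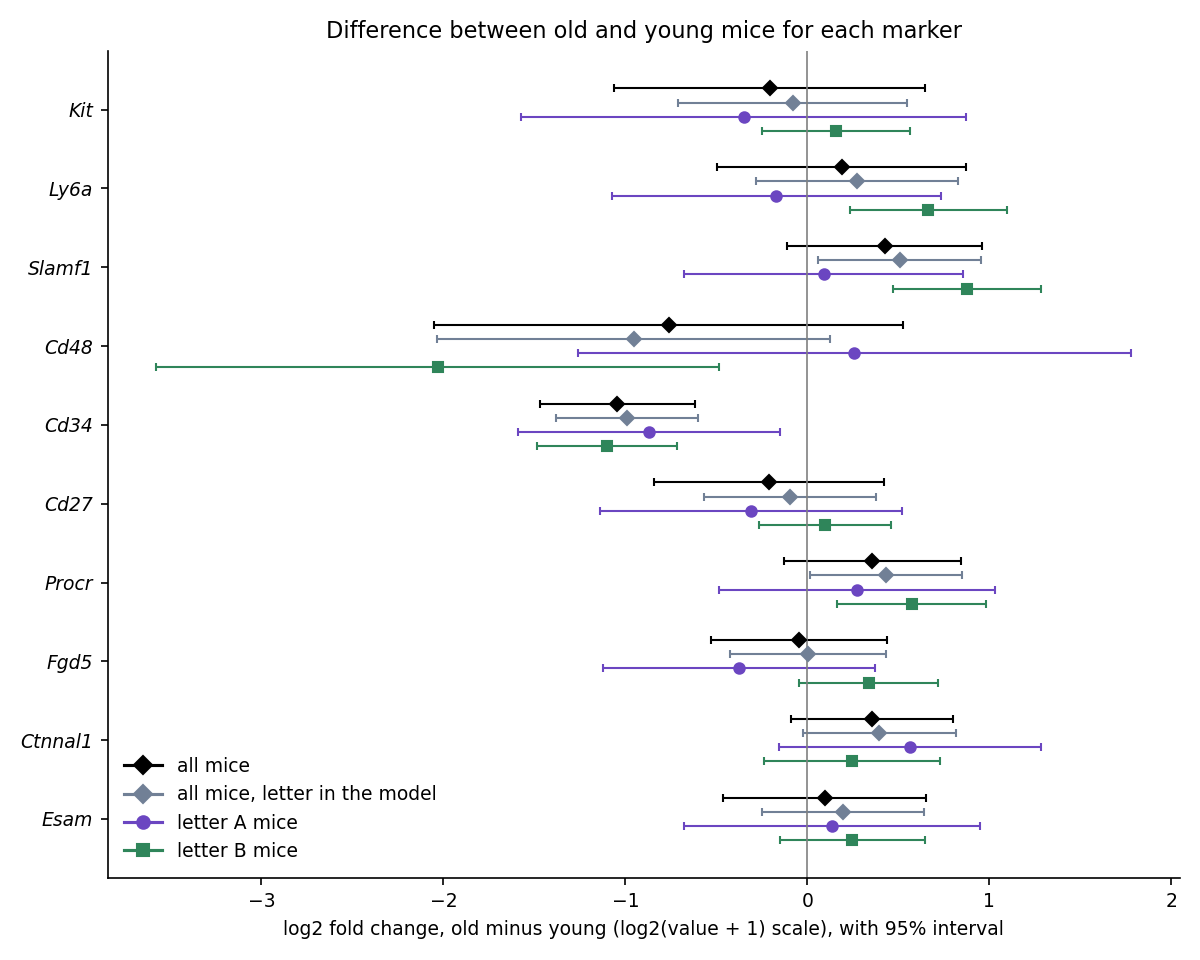
Log2 fold change of old against young mice for each marker (horizontal axis, log2(value + 1) scale) with its 95% interval, from all mice, all mice with the letter in the model, letter A mice and letter B mice; *Cd48* is from fits without the filter. The 4 intervals of *Cd34* lie below 0, and the letter A and letter B estimates differ most for *Cd48*, at 0.26 and -2.03.

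Within letter B, where the libraries were deepest, 4 of the 9 tested markers did not overlap between 3 young and 3 old mice, as did 12.9% of all genes tested. *Slamf1*, *Ly6a* and *Procr* were higher and *Cd34* was lower in the old mice. In the same mice, *Kit* had 1507 to 2049 in young and 1847 to 2013 in old, and *Cd27* 146 to 227 and 192 to 213. The ages overlapped for both genes.

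Ratios of markers within a mouse do not depend on the scaling between libraries. The ratio of *Slamf1* to *Cd34* was 0.321, 0.792, 0.420, 0.286 and 0.447 in young mice 1 to 5 and 1.26, 1.65, 1.12, 1.85, 0.535, 1.34 and 1.04 in old mice 1 to 7. All old mice but old mouse 5 were above every young mouse. The ratio of *Procr* to *Cd34* was 0.344 to 0.638 in young (median 0.413) and 0.604 to 1.55 in old mice (median 1.21). *Procr* over *Kit* was 0.0409 to 0.0573 in young and 0.0577 to 0.11 in old mice, which did not overlap by a narrow margin. The ratios of *Slamf1*, *Ly6a*, *Esam* and *Cd34* to *Kit* did overlap between the ages. *Cd34* over *Kit* was 0.0868 to 0.148 in young mice and 0.0418 to 0.0564 in 5 old mice, but 0.146 in old mouse 5 and 0.101 in old mouse 7, within the young range. *Cd34* over *Cd27* was 0.988 to 1.11 in young mice and 0.409 to 0.778 in 6 old mice, but 1.31 in old mouse 5, above every young mouse. In the ratios to *Kit* and *Cd27*, the lower *Cd34* of old mice was therefore not seen in old mouse 5, where *Kit* and *Cd27* were also low. Of all genes tested, 0.502% had ratios to *Kit* that did not overlap between the ages. *Kit* over *Cd27* was 6.77 to 12.8 in young and 7.71 to 10.4 in old mice. The ratios were chosen after the values had been seen, and no test was made on them.

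**Figure D5:**
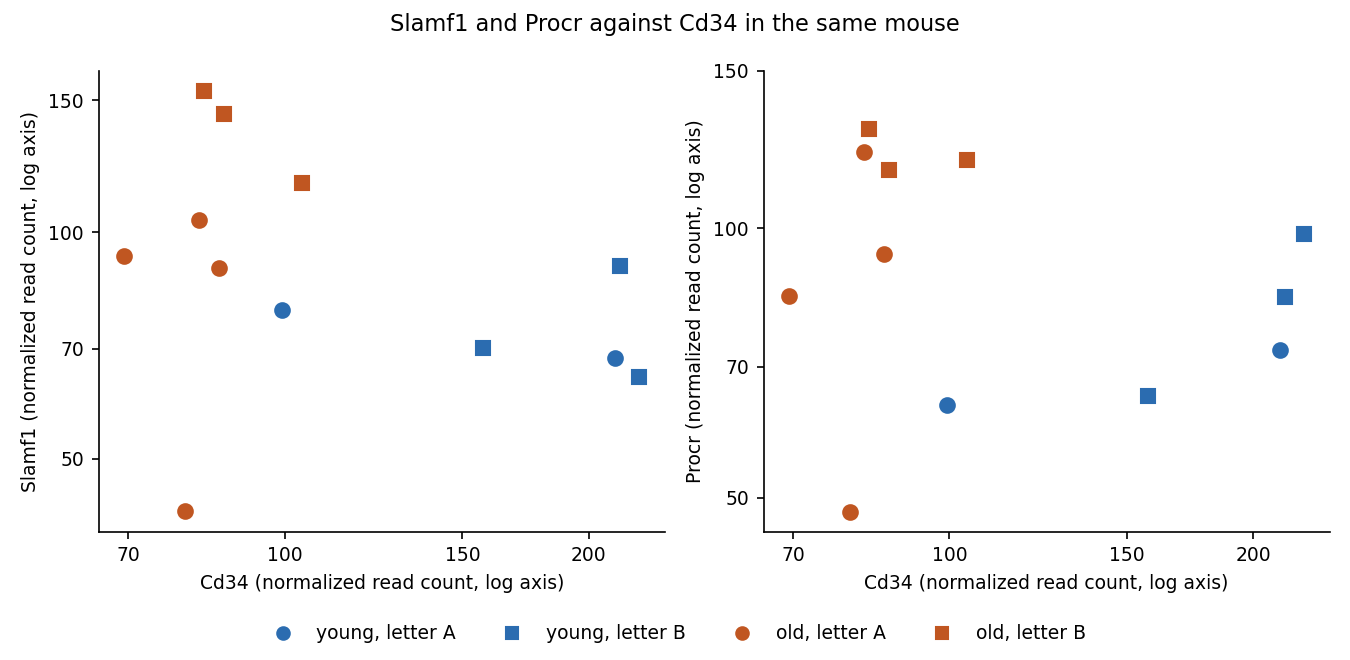
*Slamf1* (left) and *Procr* (right) against *Cd34* in the same mouse, in normalized read counts on log axes, with 1 point per mouse (circles letter A, squares letter B; blue young, orange old). The old mice stand at the left, with *Cd34* at 69.4 to 104, beside young mouse 2 at 99.5; 5 of 7 old mice lie above every young mouse for *Slamf1* and 4 of 7 for *Procr*, while old mouse 5 lies below every young mouse for both.

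The mice of the 2 letters were compared as well, since the letter went with depth. With age in the model, *Cd27* (log2 difference B minus A 0.69, limma adjusted p = 0.0212) and *Esam* (0.58, adjusted p = 0.0355) were called higher in letter B. These were 2 of 9 markers, against 36.1% of all genes called in either direction, 1301 higher and 3161 lower of 12354. *Kit* followed at 0.74 (adjusted p = 0.0555) and *Slamf1* at 0.48 (adjusted p = 0.0799). *Cd34* differed by 0.30 (adjusted p = 0.217), and *Cd48*, without the filter, by -1.12 (adjusted p = 0.0890). After rescaling by median ratios, which moved the median of all genes between the letters from -0.09 to 0.21 on the log2 scale, all 9 were called higher in letter B. Of all 12354 genes, 3360 were called higher and 2536 lower there, 47.7% in either direction. With edgeR, which called 30.8% of all genes, *Kit* passed (adjusted p = 0.0478) while *Cd27* (0.0538) and *Esam* (0.0714) did not, and with a minimum mean of 30 *Cd27* alone passed, beside 20.7% of the genes tested. No marker passed without young mouse 2 or without old mouse 2. The letter calls thus depended on the scaling, the test and single mice. Letter and depth cannot be told apart here.

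Across the 12 mice, after the mean of each letter had been subtracted, the markers were compared in pairs. *Kit* and *Cd27* had a Pearson r of 0.85 of log2(value + 1), *Kit* and *Ly6a* 0.83, and *Slamf1* and *Procr* 0.83. Many other pairs were also positive, such as *Kit* with *Esam* at 0.76 and *Ly6a* with *Slamf1* at 0.72, and 5% of all genes compared had an r above 0.889 with *Kit*. *Cd34* had an r of 0.12 with *Kit*, 0.34 with *Cd27* and -0.58 with *Slamf1*, and *Cd48* had -0.83 with *Slamf1*. These values describe 12 mice that share 2 ages and differ in depth, and no test was made on them.

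The genes most like each marker, among 4798 with a mean of at least 50, were found with the same measure. For *Cd34* they were *Zfp704* (r = 0.90), *Hjurp*, a chaperone of centromeric histone (0.90), and *Flcn*, the folliculin gene (0.87), while the median over all genes compared was 0.11. For *Cd48* they were *Cenpe* (0.88) and *Aspm* (0.86), which act in mitosis, and *Nasp*, a histone chaperone (0.83), with a median of -0.18. *Slamf1* was most like *Uba7*, *Tnfsf10* and *Cd274* (0.92, 0.91 and 0.91), of which *Cd274* encodes PD-L1 and *Tnfsf10* the ligand TRAIL. *Ly6a* was most like *Ly6e*, of the same family, *H2-T23* and *Retreg2* (0.96, 0.94 and 0.93), and *Procr* like *Muc13*, *Itga6*, an integrin subunit, and *Ttc39b* (0.96, 0.95 and 0.95). *Kit* was most like *Chd4*, *Zfp106* and *Hipk3* (0.99, 0.98 and 0.98) and *Cd27* like *Gnl3l*, *Fchsd2* and *Kmt2c* (0.98, 0.96 and 0.96). For both, the median over all genes was itself high, at 0.51 and 0.49. *Fgd5* was most like *Cdk18*, *Myd88* and *Sgf29* (0.91, 0.90 and 0.90), *Esam* like *Klhl23*, *Tsc22d1* and *Nacc1* (0.93, 0.92 and 0.92), and *Ctnnal1* like *Map9*, *Ahr* and *Mrpl48* (0.81, 0.80 and 0.78).

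Other markers of the same cell types were taken from lists. Of 24 other stem cell surface and reporter markers, 0 were called in the main fit, with 12 positive and 12 negative fold changes. With the letter in the model 3 of the 24 were called, against 0.299% of all genes. All 3 were higher in old mice: *Alcam*, an adhesion molecule (log2 fold change 1.16, adjusted p = 0.00472), *Neo1*, the netrin receptor neogenin (1.11, adjusted p = 0.00256), and *Clec1a*, a C-type lectin (0.93, adjusted p = 0.0251). The list was chosen with earlier results of these data known. The study had reported higher *Neo1* in old cells from the same data, so that call is not independent. The means were 131 ± 18.5 (young) and 293 ± 102 (old) normalized read counts for *Alcam*, 80.9 ± 26.0 and 164 ± 52.0 for *Neo1*, and 117 ± 20.6 and 218 ± 59.8 for *Clec1a*. The median of the 24 was 0.08 in this fit, beside -0.05 over all genes. *Vwf*, *Flt3*, *Cd84*, *Emcn* and *Kdr* are named here after their values had been seen. *Vwf*, which encodes von Willebrand factor, had 285 ± 60.0 and 501 ± 154 and missed the threshold (0.87, adjusted p = 0.0580).

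Of 9 tested MPP surface markers 0 were called in either fit. *Flt3*, the receptor that marks lymphoid-primed MPPs, had 54.1 ± 13.6 normalized read counts in young and 30.8 ± 13.0 in old mice, with a log2 fold change of -1.01 with the letter in the model (adjusted p = 0.0523). All 9 cell cycle genes listed, among them *Mki67*, *Top2a* and *Mcm2*, had fold changes below 0, with a median of -0.65 beside -0.02 over all genes, and 0 were called (with the letter, a median of -0.58 and 0 called). Endothelial cells also express *Cd34*, *Esam*, *Procr* and *Ly6a*. Endothelial markers (6 of 7 with a row, none at 0 in all mice) summed to 431 to 578 in young and 353 to 659 in old mice, most of it from *Tie1*, which HSCs also express. *Cdh5*, which defines endothelial cells, had 15.7 ± 10.5 in young and 16.1 ± 10.3 in old mice. Its mean over all mice was 3.79 per kb. The receptor gene reference was 0.959 to 3.30 per kb in single young mice, below that mean, and 0.546 to 5.30 in single old mice. Whether *Cdh5* stood above the reference within a mouse was not tested. Of the 5 endothelial genes tested, 3 had positive and 2 negative fold changes. *Emcn* had 52.6 ± 8.37 in young and 33.4 ± 11.4 in old mice, and *Kdr* 48.7 ± 16.2 and 67.3 ± 20.5. The share of endothelial cells was not tested. Stromal markers (5 of 5 with a row) summed to 88.7 to 236 and 45.5 to 271, and 0 genes of these lists were called.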

How the data were processed

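RNA of sorted LSK-SLAM cells from 12 mice was analysed. The deposited values are a normalized signal, in which the authors had scaled each mouse's gene reads to a common effective library size. The mm10 build, FastQC 0.11.8, STAR 2.5.4b and edgeR 3.24.3 are named in the submitters' processing notes, without roles. The counting tool and annotation are not given in the sources used here. Of the deposited values, 100.0% came out as whole reads once divided by the step of their mouse (tolerance 0.001 reads), and these reads were used for count tests. A second table of the authors' own comparison (fold changes and p-values) was not used.

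Genes with a mean of at least 10 were tested on log2(value + 1) with limma 3.58.1 (R 4.3.3, trended variance, Benjamini-Hochberg adjustment, threshold 0.05). A fold change is on that scale, which understates changes of low genes. Alternatives used edgeR 4.0.16 (quasi-likelihood) and DESeq2 1.42.0 on recovered reads, other scalings, filters and pseudocounts, the letter as a covariate, and each mouse left out. Fits without old mice 5 and 7, on thinned reads, with receptor genes subtracted, and the letter fits for *Cd48* or with a mouse or scaling changed were added after seeing the data. Single genes were tested by two-sided exact permutation. The fitting steps were tested on simulated data. P-values measure the spread between mice. Depth was 861047 to 5118507 reads per mouse, and 3 reads were worth 0.583 to 3.69 normalized read counts.

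The markers and lists were chosen with earlier results of these data known. All 10 markers are named, with the 3 genes most like each, list genes past the threshold, and defining markers. Gene positions come from GENCODE vM21 (GRCm38, 18745 of 18762 genes matched), and promoters from RefSeq (8 of 10 markers matched; not *Ly6a* and *Esam*).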

Additional observations from a re-analysis of the deposited data

How the results depend on the processing

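Under the main model no marker passed the threshold for age. *Cd34* alone passed with a minimum mean of 30, with the letter, with edgeR, with edgeR and the letter, with DESeq2, and without old mice 5 and 7 (1 marker in each), and *Cd34* and *Slamf1* within letter B (2). Leaving out 1 mouse gave 0 to 1. By limma without the letter, *Cd34* did not pass with median ratios (adjusted p = 0.383), without the variance trend (0.242) or on thinned reads (0.0932). With both median ratios and the letter it passed (adjusted p = 0.0404). With the letter in the model the count was 1, with 2 without old mice 5 and 7, and 0 to 1 when 1 mouse was left out. For letter B against A the count of 2 (*Cd27* and *Esam*) became 9 with median ratios (47.7% of all genes), 1 with a minimum mean of 30 (*Cd27*), 1 with edgeR (*Kit*, 30.8% of all genes), and 0 to 4 when 1 mouse was left out. The age-by-letter count was 0 in 15 of 15 alternatives, with 424 genes at an unadjusted p under 0.05. *Procr* and *Ctnnal1* kept their direction and stayed unpassed in 28 of 28 alternatives, and *Cd34* was below 0 in 28 of 28. The sign turned for *Kit* (0.16 in letter B, 0.18 without old mice 5 and 7), *Ly6a* (-0.17 in letter A), *Cd48* (0.26 in letter A) and *Cd27* (0.10 in letter B, 0.11 without old mice 5 and 7). *Fgd5* turned to 0.0024 with the letter, 0.34 in letter B, 0.0202 with edgeR, 0.0216 with DESeq2, 0.0408 with edgeR and the letter, and 0.21 without old mice 5 and 7. With 1 mouse left out, *Kit* ranged from -0.31 to 0.0081, *Fgd5* from -0.13 to 0.12 and *Esam* from -0.0175 to 0.25, and with the letter in the model *Kit* from -0.16 to 0.0641, *Cd27* from -0.26 to 0.17 and *Fgd5* from -0.11 to 0.15. The causes were not tested. Replicate numbers 1 to 5 name different animals in each age, and deviations of same-numbered mice correlated at -0.559 to 0.615, with 2 of 5 young mice closest to their own number. With the number as a block, 0 markers passed, *Cd34* was -0.996 (adjusted p = 0.153, 0.210 without the block in the same mice) and *Fgd5* 0.15, and 19 genes were called against 8. Depth limited *Cd48*, read from 3 to 44 reads per mouse.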
